A study of Mus musculus with 16 samples.

Results

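Iron handling and siderophore genes were examined as a set of 10: Bdh2, Lcn2, Slc22a17, Slc11a1, Slc40a1, Tfrc, Hmox1, Fth1, Ftl1 and Cp. They were found by symbol among 55359 genes of the deposited count table, and all 10 passed the expression filter that left 20953 genes for testing. The members were chosen by their role, with earlier measured expression values of these libraries in view. Bdh2 in particular had been selected on its level in the libraries with a ligature, so its levels and fold changes are given as a description with no test. For the other 9 genes the adjusted p-values come from the fit of all genes and are no independent support.

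RNA sequencing was carried out on periodontal ligament, the connective tissue that holds a tooth root in its socket, from wild-type male C57BL/6J mice aged 9 weeks. Control mice had no treatment. Ligature mice carried a silk thread around an upper left molar, a common way to bring on periodontitis in the mouse. Trauma mice had that tooth raised with composite resin on its chewing face, which overloads it, and ligature plus trauma mice had both. Each group had n = 4 libraries with 58458102 to 77468584 counts per library. The labels do not say how many mice made up a library or how long after the procedure the tissue was taken, so the p-values measure the spread between libraries, which may be partly technical. The series title mentions bone, although periodontal ligament is the tissue on every label. Summed markers of ligament fibroblasts (10 genes such as Postn and Tnmd) ranged from 41715 to 104826 CPM (counts per 1000000 of the scaled library total), with none at 0 in any library.

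Cells take up iron bound to transferrin through the transferrin receptor, store it in ferritin, and release it through ferroportin. During infection, hosts withhold iron from bacteria, among other ways by trapping siderophores, the small iron carriers that bacteria secrete. In inflamed gums these steps are shared among neutrophils, macrophages, epithelium and stromal cells, and osteoclasts need iron for their many mitochondria. Several of the messages carry an iron-responsive element, a hairpin to which iron regulatory proteins bind when iron is scarce. In a 5′ untranslated region (UTR) this binding blocks translation, and in the 3′ UTR of the transferrin receptor it protects the message from decay.

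The iron-responsive elements are shown because their place tells which step the binding acts on, message decay in the 3′ UTR or translation in the 5′ UTR. Message levels can depend on iron in other ways too. The element was searched as a CAGTGN loop after an unpaired C, with 5 paired bases above the bulge and at least 3 of 6 below it. Whole transcripts were searched, coding sequence included. Of the 10 members, 4 held at least 1, beside 119 of 21894 protein-coding genes searched (0.544%). The members were chosen by their role in iron handling, so the difference between these shares is a description and no test. The sequences are from GENCODE M21 transcripts (GRCm38), written 5′ to 3′ with the loop in capitals.
Fth1, 5′ UTR: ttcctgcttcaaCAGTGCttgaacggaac
Ftl1, 5′ UTR: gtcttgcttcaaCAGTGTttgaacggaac
Slc40a1, 5′ UTR: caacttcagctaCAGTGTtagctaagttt
Tfrc, 3′ UTR, element 1: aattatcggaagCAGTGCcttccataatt
Tfrc, 3′ UTR, element 2: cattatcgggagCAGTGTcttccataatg
Tfrc, 3′ UTR, element 3: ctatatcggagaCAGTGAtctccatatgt
Tfrc, 3′ UTR, element 4: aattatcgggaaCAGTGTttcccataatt
The ferritin messages and Slc40a1 had 1 element each, upstream of the coding sequence, and Tfrc had 4 downstream of it. A match is a description of the letters and does not show binding. No match in the 6 other members says only that this pattern is not in the transcript searched.

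A group of 3 libraries stood apart before any comparison: replicate 2 of ligature and replicates 2 and 3 of ligature plus trauma. Short transcripts took a larger share of their counts. Computed over genes, which are no independent replicates, the Spearman correlation of a library's deviation in log2 CPM with transcript length was -0.429, -0.345 and -0.363 in these libraries, and between -0.169 and 0.321 in the other 13. Among those 13, the correlation was 0.0954 to 0.321 in control and -0.169 to 0.113 in trauma. Leaving out the 3 libraries therefore does not remove every length trend from the comparisons with control. Members of the set differ widely in length, from 915 bases for Lcn2 and 968 for Ftl1 to 4029 for Cp and 4890 for Tfrc. Fold changes of members against control in the groups that hold these libraries are therefore also given for 13 libraries, which leaves 3 with a ligature alone and 2 with ligature plus trauma.

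**Figure D1:**
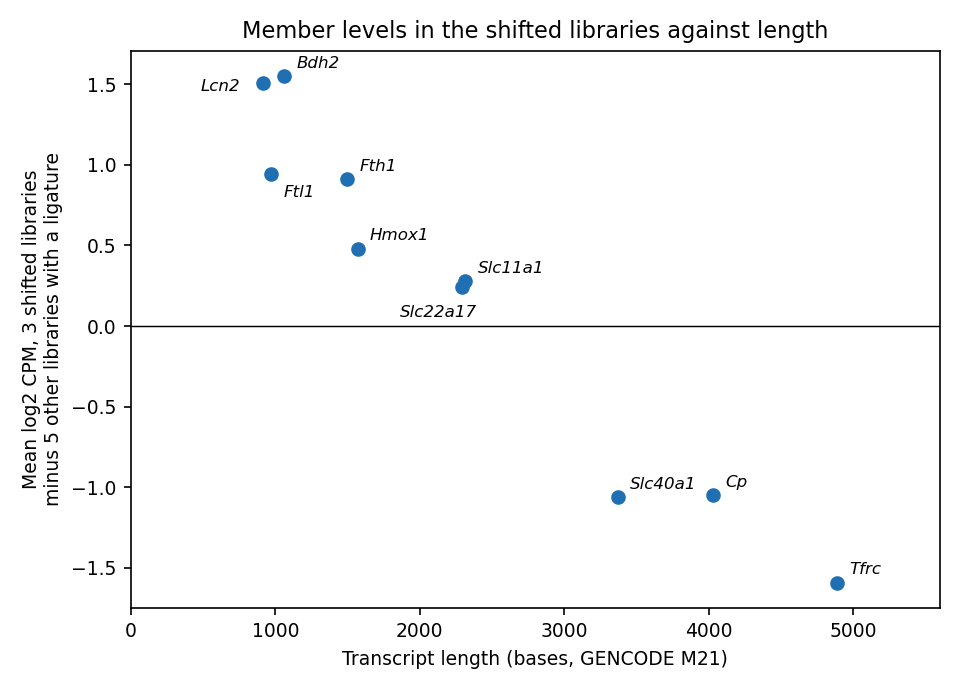
For each member, the mean log2 CPM of the 3 libraries shifted to short transcripts minus that of the 5 other libraries with a ligature (vertical axis) is plotted against the length of its transcript in bases (horizontal axis). Bdh2 (1059 bases) sits highest at 1.55 and Tfrc (4890 bases) lowest at -1.59.

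Among the libraries with a ligature, 5 members were higher in all 3 shifted libraries than in any of the 5 others, and 1 was lower. Bdh2 stood at 78.7 to 86.7 CPM in the former and 25.2 to 31.9 in the latter, a ratio of means of 2.91. Lcn2 differed likewise with a ratio of 2.68, Ftl1 with 1.92, Fth1 with 1.87 and Hmox1 with 1.38. Tfrc was the member below, at 54.7 to 105 CPM against 130 to 327, a ratio of 0.33. The ranges of Slc40a1, Slc11a1, Slc22a17 and Cp overlapped. These differences are given without a test, and whether the length shift made them was not tested.

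Bdh2 was selected on its level with a ligature and is left out of the counts that follow. In ligature against control, 5 of the 9 other members passed (edgeR quasi-likelihood test, Benjamini-Hochberg adjusted p under 0.05 over all genes tested), all of them higher: Slc11a1, Tfrc, Hmox1, Fth1 and Cp. Of all genes tested, 10.7% passed in this comparison, 5.88% higher and 4.78% lower. In ligature plus trauma against control, 4 of the 9 passed, again all higher: Slc11a1, Hmox1, Fth1 and Ftl1. The background there was 12.5%, made up of 6.83% higher and 5.62% lower. The median log2 fold change of the 9 was 1.38 for the ligature and 1.10 for both procedures, beside -0.05 and -0.08 over all genes. Because the set was chosen with these results known, its excess over the background is not evidence in itself. In 13 libraries, where 22807 genes were tested, 5 of the 9 passed in the first comparison and 2 in the second, all higher. The background was then 7.99% (4.49% higher, 3.49% lower) and 3.26% (2.13% higher, 1.13% lower).

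Trauma alone gave no member past the threshold by edgeR, against a background of 0.00477% (1 gene, which was higher, and 0% lower). At an unadjusted p under 0.05 there were 3 members and 1450 genes in all. DESeq2 passed 1 member, Lcn2, and 114 genes in all, and limma-voom with sample weights passed 1 gene of all tested. Ligature plus trauma against ligature gave 0 members and 0% of all genes in either direction. At an unadjusted p under 0.05 this comparison had 0 members and 734 genes, DESeq2 passed 0 members and 31 genes, and limma-voom 0 genes. Log2 differences of the 9 members there lay between -0.66 and 0.19. Against trauma alone, ligature plus trauma had 1 of the 9 past the threshold, Tfrc, which was higher, where 5.48% of all genes passed (2.21% higher, 3.27% lower). The interaction (the log2 change that trauma made in ligated mice minus that in mice with no ligature) passed for 0 members and 0% of genes. At an unadjusted p under 0.05 the interaction had 1 member and 1032 genes, DESeq2 passed 0 members and 51 genes, and limma-voom 0 genes.

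**Figure D2:**
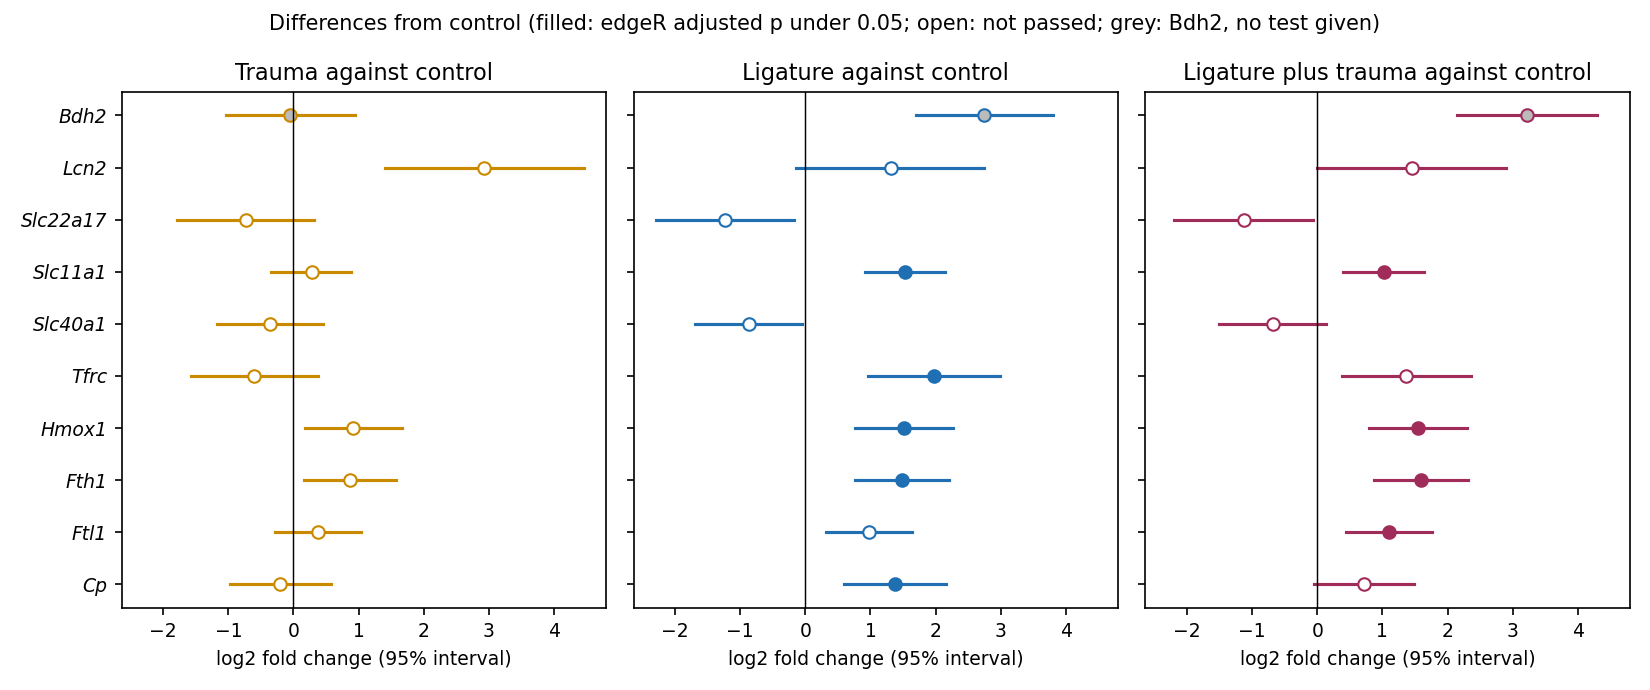
Log2 fold change against control (horizontal axis, with its 95% interval from the edgeR fit) for each member in trauma, ligature, and ligature plus trauma. Filled points passed, open points did not, and Bdh2 is grey because no test is given for it. Bdh2 lies farthest to the right with a ligature (2.75 and 3.22) and at -0.05 with trauma alone.

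**Figure D3:**
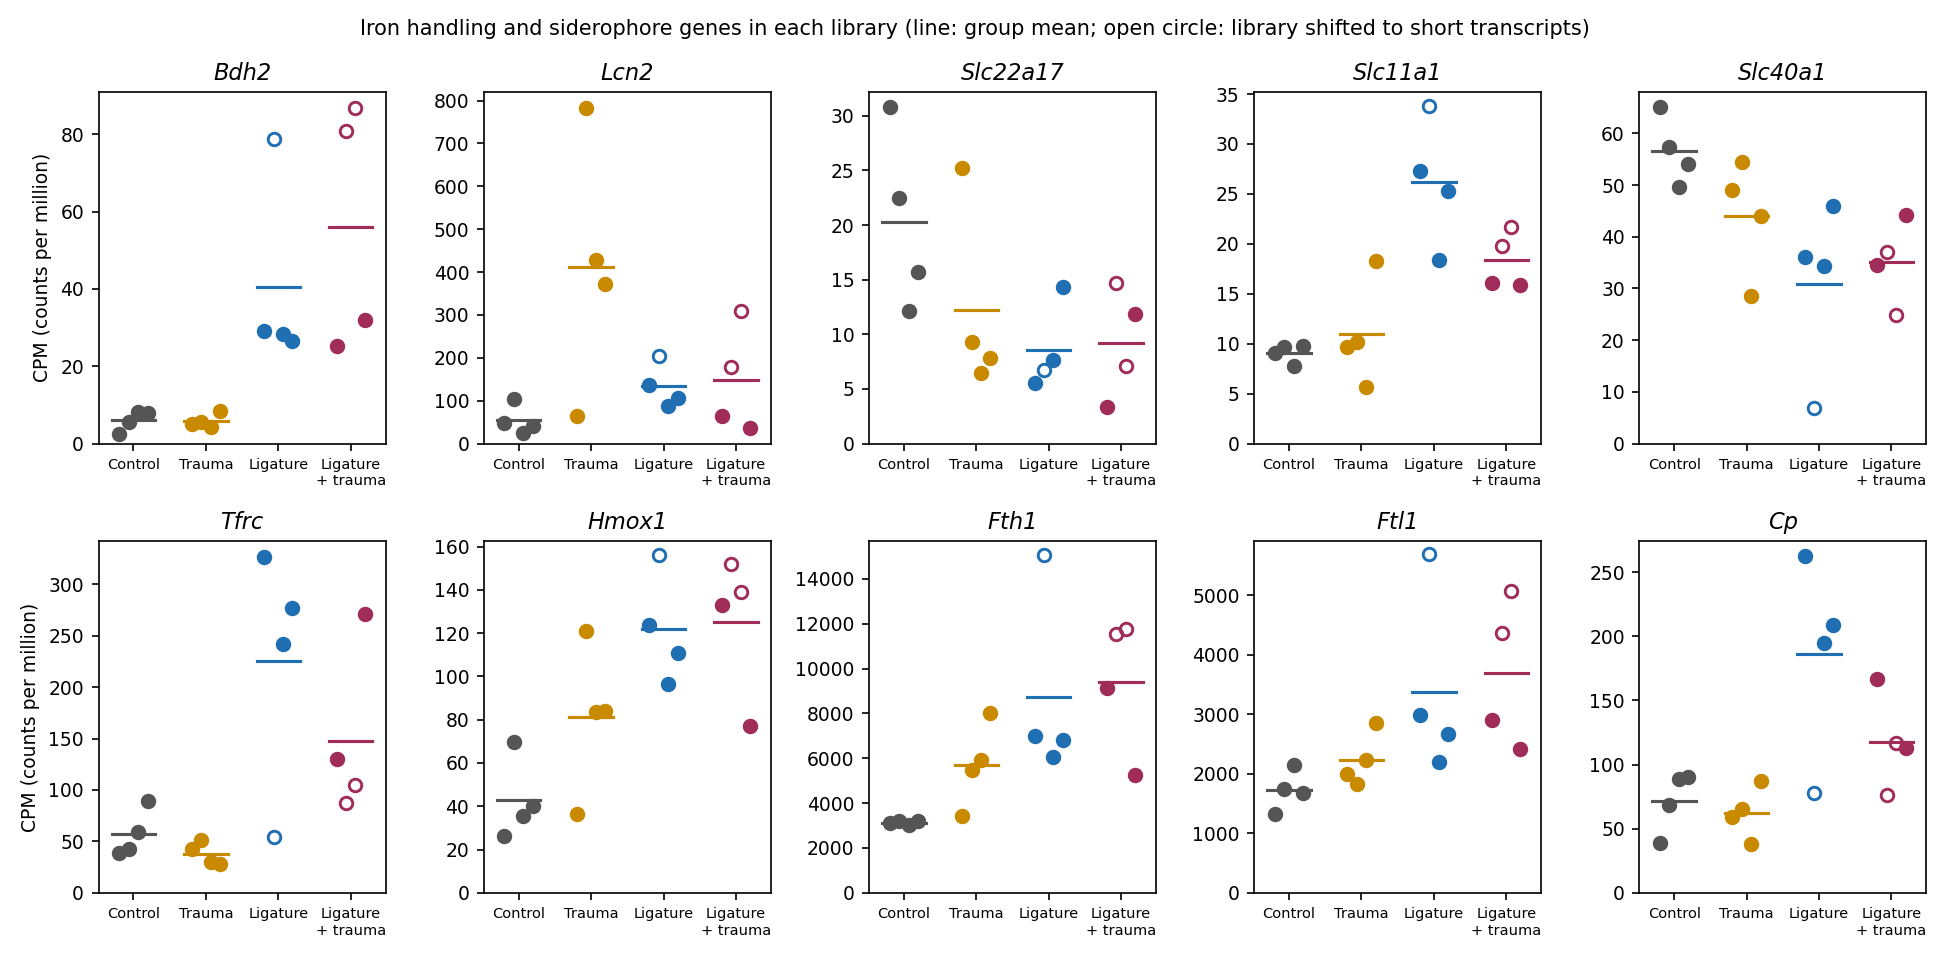
CPM of each member in all 16 libraries (vertical axis from 0, 1 panel per gene), with a line at the group mean and open circles for the 3 libraries shifted to short transcripts. Fth1 runs from 3017 CPM in control to 15078 CPM in ligature 2, and all 8 libraries with a ligature lie above all control and trauma libraries for Bdh2.

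Levels of the members spanned a wide range even in untreated tissue. Per kilobase of transcript, the control means were 2098 ± 57.9 CPM (SD, n = 4) for Fth1 and 1777 ± 343 for Ftl1. Lcn2 followed at 58.9 ± 37.8, Hmox1 at 27.3 ± 11.9, Cp at 17.8 ± 5.94, Slc40a1 at 16.8 ± 1.93 and Tfrc at 11.7 ± 4.72. Slc22a17 at 8.84 ± 3.59, Bdh2 at 5.69 ± 2.47 and Slc11a1 at 3.91 ± 0.404 were the lowest. The 2 ferritin chains were far above the rest, while neighbours from Hmox1 downwards lay within their combined spread.

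Bdh2 (ENSMUSG00000028167.16) encodes a short-chain dehydrogenase that has been credited with making gentisic acid, proposed as the mammalian siderophore that lipocalin 2 can bind, a role that is disputed. Control libraries 1 to 4 had 2.56, 5.46, 8.11 and 7.99 CPM, and trauma libraries 5.04, 5.45, 4.36 and 8.52. Ligature libraries had 29, 78.7, 28.3 and 26.5 CPM, and ligature plus trauma libraries 25.2, 80.8, 86.7 and 31.9. All 8 libraries with a ligature were thus above all 8 without one, and the control and trauma ranges overlapped almost wholly. The log2 fold change was 2.75 ± 0.50 (SE) for ligature against control, a fold of 6.74, and 3.22 ± 0.51 for both procedures, a fold of 9.31. With the 3 shifted libraries left out, these fell to 2.19 and 2.24, and ligature plus trauma against trauma went from 3.26 to 2.29. The 5 remaining libraries with a ligature, at 25.2 to 31.9 CPM, were still all above the control and trauma libraries, whose highest value was 8.52. Trauma alone differed from control by -0.05 ± 0.47 on the log2 scale, with a 95% interval that reached beyond 0 on both sides.

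Over the 16 libraries, the genes whose log2 CPM was most like that of Bdh2 were Nudt22 (Pearson r = 0.979), Clec4a2 (0.978), Bcl2a1b (0.977), Atp6v0b (0.976) and Igfbp4 (0.974). All 16 points share the split between libraries with and without a ligature, and the shifted libraries share their length trend, so these r values describe the pattern only. Clec4a2, a lectin receptor of myeloid cells, had 11.2 to 38 CPM in control and 73 to 110 in ligature libraries. Atp6v0b, a subunit of the vacuolar proton pump, had 119 to 175 CPM in control and 335 to 746 in ligature libraries. For both, as for Bdh2, the ligature libraries lay above every control library.

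Markers of 3 cell populations were read beside Bdh2. The 8 osteoclast markers summed to 1091 to 4089 CPM in control and 1349 to 4146 in trauma, against 10841 to 15413 in ligature and 10240 to 12941 in ligature plus trauma. Of these 8, 7 passed in each comparison of a ligature group with control, all higher, and none was at 0 in any library. The 10 macrophage markers summed to 490 to 791 CPM in control and 785 to 1362 in ligature, with 3 higher and 3 lower among those that passed, and Marco at 0 in some libraries. Macrophage sums were 514 to 1094 CPM in trauma and 876 to 1060 with both procedures. The 7 endothelial markers summed to 169 to 305 CPM in control and 174 to 402 in trauma, against 801 to 1471 in ligature, where 6 of them passed higher, and 729 to 1301 with both procedures, where 5 did. In bulk tissue, more cells of a type and more RNA per cell cannot be told apart, and the part of these cells in the Bdh2 values was not tested.

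Lcn2 (ENSMUSG00000026822.15) encodes lipocalin 2, a secreted protein of neutrophils and epithelium that binds bacterial siderophores. It had 47, 103, 23.5 and 41.7 CPM in control and 136, 204, 87.5 and 106 in ligature libraries. Trauma libraries had 63.9, 782, 427 and 373 CPM, and ligature plus trauma libraries 64.2, 179, 310 and 37.1. The 3 highest values were all in trauma libraries, and trauma 1 was within the control range. Trauma against control gave a log2 fold change of 2.93 ± 0.72, with a 95% interval of 1.41 to 4.46, and an edgeR adjusted p of 0.446. DESeq2 gave 2.96 with an adjusted p of 0.00219, so the call depended on the tool. The ligature gave 1.31 ± 0.68 (edgeR adjusted p = 0.23) and both procedures 1.45 ± 0.68 (0.161), neither past the threshold. In 13 libraries the former was 1.01 and the latter turned to -0.10. The interaction for Lcn2 was -2.79 ± 0.96, with an unadjusted p of 0.0106 in edgeR and an adjusted p of 0.969.

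Markers of neutrophils, a source of lipocalin 2, were read beside Lcn2. The 10 mature neutrophil markers summed to 209 to 737 CPM in control, 710 to 1558 in ligature and 718 to 3944 in ligature plus trauma. In trauma they summed to 4755, 3445 and 2821 CPM in libraries 2 to 4 and to 625 in library 1, which was also the trauma library lowest in Lcn2. Ly6g was at 0 in some libraries and at most 2.26 CPM in any. S100a8 and S100a9, the most abundant of the list, reached 2557 and 2018 CPM in trauma 2 and made up most of the sums there. Other markers did not follow Lcn2: Clec4d had 4.71 to 24.1 CPM in trauma and 25.5 to 92 in ligature, and Clec4e 8.54 to 36.9 and 51.7 to 83.6. By edgeR 5 of the 10 markers were higher in ligature and 8 with both procedures. In trauma 0 passed by edgeR and by limma-voom, with 7 at an unadjusted p under 0.05, and 5 passed by DESeq2, all higher. Oral epithelium, another source of lipocalin 2, had summed markers of 5176 to 36248 CPM in trauma, 1693 to 14875 in control, 1821 to 3075 in ligature and 987 to 3566 in ligature plus trauma. The part of either cell type in the Lcn2 values was not tested.

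The genes most like Lcn2 over the 16 libraries were Orm1 (Pearson r = 0.925), S100a9 (0.913), Vnn3 (0.892), S100a8 (0.888) and Dnajb6 (0.83). S100a8 and S100a9, which are also on the neutrophil list, encode calprotectin, a protein that withholds zinc, manganese and iron from microbes. Orm1, an acute-phase glycoprotein, reached 71.2 CPM in trauma and no more than 5.24 in control. These are correlations over libraries of 4 groups, given as a description.

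**Figure D4:**
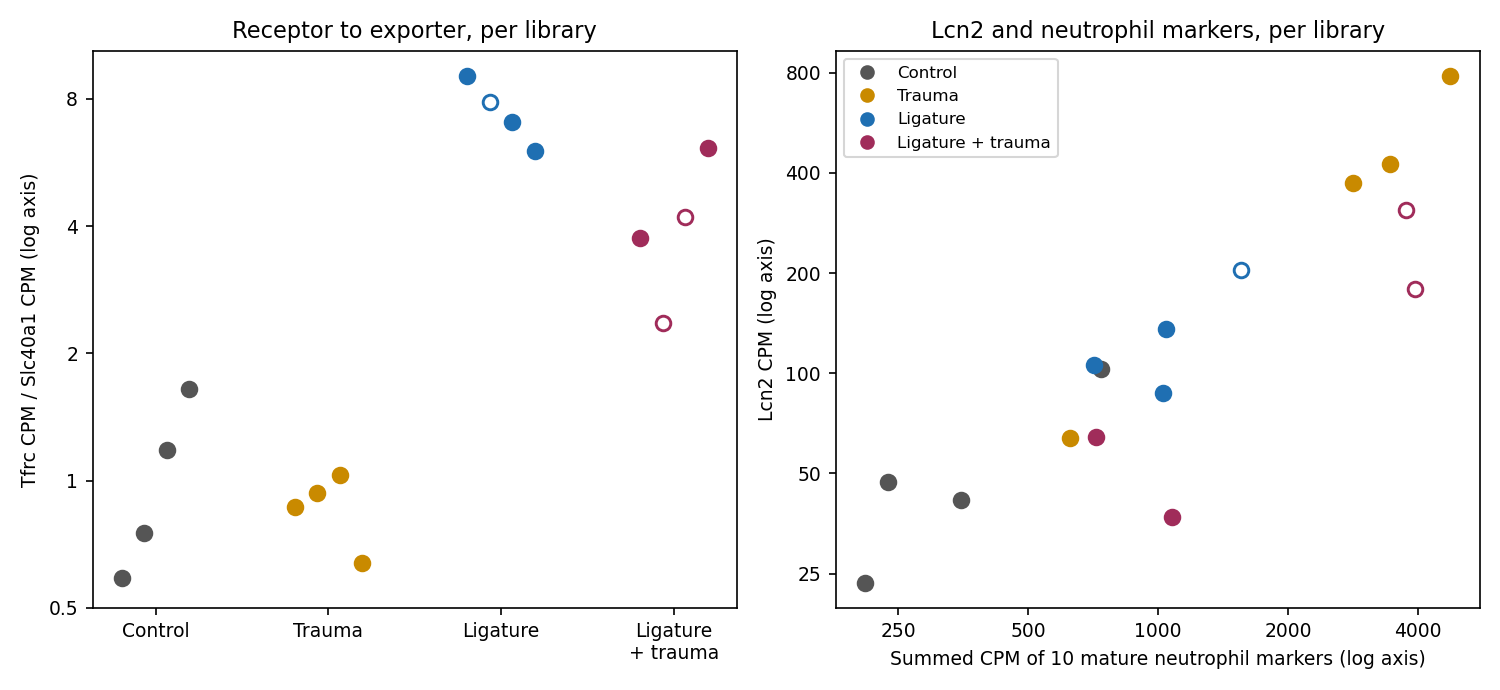
Left, the ratio of Tfrc CPM to Slc40a1 CPM in each library by group (log axis). Right, Lcn2 CPM against the summed CPM of 10 mature neutrophil markers in each library (both axes log). Open circles are the 3 shifted libraries. Every ratio with a ligature, from 2.36 up, lies above every ratio without one, of 1.65 at most, and trauma 2 is highest on both axes of the right panel.

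Slc22a17 (ENSMUSG00000022199.13) encodes a cell-surface receptor for lipocalin 2. Its values were 30.8, 22.5, 12.1 and 15.7 CPM in control and 5.58, 6.71, 7.67 and 14.3 in ligature. Trauma had 25.2, 9.33, 6.44 and 7.83 CPM, and ligature plus trauma 3.31, 14.7, 7.1 and 11.9. The group means were lowest with a ligature, at 8.57 and 9.23 CPM against 20.3 in control, but the ranges of both groups overlapped that of control. The log2 fold change was -1.24 ± 0.50 for the ligature (edgeR adjusted p = 0.121) and -1.13 ± 0.50 for both procedures (0.137), neither past the threshold. In 13 libraries the values were -1.16 and -1.43. Lcn2 CPM over Slc22a17 CPM, a ratio not scaled by length and read only between libraries, was 1.53 to 4.59 in control and 7.38 to 30.4 in ligature. With both procedures it was 3.13 to 43.6, which overlapped control. In trauma the ratio ran from 2.54 in library 1 to 83.9 in library 2.

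Slc11a1 (ENSMUSG00000026177.12) encodes a transporter that, in its working form, removes iron and manganese from the phagosomes of macrophages and neutrophils. The counts give its message only, and whether the transporter works in this mouse strain was not tested. Control libraries had 9.11, 9.64, 7.72 and 9.76 CPM and ligature libraries 27.3, 33.8, 18.4 and 25.3. With both procedures the values were 16.1, 19.8, 21.7 and 15.9, and with trauma 9.68, 10.2, 5.69 and 18.3. Control values lay within a narrow band that no library with a ligature reached. The log2 fold change for the ligature was 1.53 ± 0.29 (edgeR adjusted p = 0.00412), and 1.37 (adjusted p = 0.0167) in 13 libraries. For both procedures it was 1.02 ± 0.29 (adjusted p = 0.0335). That call was lost in 13 libraries (0.82, adjusted p = 0.219), with no expression filter (adjusted p = 0.0527) and when any control library, ligature plus trauma 2 or ligature plus trauma 3 was left out, with adjusted p of 0.0638 to 0.102 and log2 values of 0.91 to 1.06. Trauma 3, with 3445 CPM of summed neutrophil markers, had the lowest Slc11a1 of all 16 libraries. S100a8 and S100a9 held 1878 and 1496 CPM of that sum. Clec4d, Clec4e, Csf3r, Cxcr2 and Mmp8 were at their lowest of the trauma group in trauma 3, while Retnlg and Cd177 were not. The part of neutrophils in the Slc11a1 values was not tested. The macrophage sum was 785 to 1362 CPM in ligature and 876 to 1060 with both procedures. These ranges overlapped 514 to 1094 CPM in trauma, and that of ligature also overlapped 490 to 791 in control. The part of macrophages was not tested.

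Tfrc (ENSMUSG00000022797.17), the transferrin receptor, brings iron into most cells. It had 38.2, 43, 58.7 and 89.3 CPM in control and 42.6, 50.9, 29.5 and 28.2 in trauma. Ligature libraries had 327, 54.7, 242 and 277 CPM, and ligature plus trauma libraries 130, 87.6, 105 and 271. The lowest value of each ligature group, 54.7 and 87.6, came from a shifted library and fell within the control range, while the 5 unshifted libraries with a ligature were all above it. The log2 fold change was 1.97 ± 0.48 for ligature against control (edgeR adjusted p = 0.0159). Without control 1 it was 1.82 (adjusted p = 0.0515) and without control 2 it was 1.86 (0.0504), so either of these libraries decided the call. For both procedures it was 1.37 ± 0.47 (adjusted p = 0.0655), which became 1.80 (0.0185) in 13 libraries, 1.36 (0.0159) without ligature 2 and 1.65 (0.00985) with the length trend removed from each library. Ligature plus trauma against trauma gave 1.97 ± 0.48 (adjusted p = 0.0243) and, in 13 libraries, 2.40 (0.0101). The latter call was lost without trauma 1 (2.03, adjusted p = 0.0555), trauma 3 (1.87, 0.079), trauma 4 (1.85, 0.0641) or ligature plus trauma 4 (1.51, 0.0811).

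Dividing cells and red cell precursors carry much transferrin receptor, and both were measured beside it. The 8 cell cycle genes summed to 169 to 221 CPM in control and to 181 to 426 with trauma. The sums were 406 to 544 with the ligature and 352 to 500 with both, with 7 of 8 higher in ligature against control and 4 of 8 with both procedures. The 9 erythroid markers found of 10 listed summed to 2887 to 15979 CPM in control and 1259 to 26295 in ligature, and to 3591 to 7120 in trauma and 3460 to 22036 with both procedures. Epb42 and Klf1 were at 0 in some libraries. The highest erythroid sum and the lowest Tfrc of the ligature group were both in ligature 2, a library shifted to short transcripts. Tfrc is the longest member, at 4890 bases, and what the shift did to either value was not tested. By edgeR 0 erythroid markers passed in any comparison with control, also at an unadjusted p under 0.05. DESeq2 passed 0, and limma-voom passed 1, lower, in ligature against control. Osteoclast sums, given with Bdh2, were also higher in both ligature groups than in control. The osteoclast sum of ligature 2, the same shifted library, was 13722 CPM, within the group's 10841 to 15413. The part of each population in the Tfrc result was not tested.

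Slc40a1 (ENSMUSG00000025993.11) encodes ferroportin, the exporter through which cells release iron. It had 65.1, 57.3, 49.6 and 54.1 CPM in control, 36.1, 6.95, 34.3 and 46 in ligature, and 34.6, 37.1, 24.9 and 44.2 in ligature plus trauma. Trauma libraries had 49.1, 54.5, 28.6 and 44.1. No library with a ligature reached the lowest control value, yet the differences did not pass. They were -0.87 ± 0.39 (edgeR adjusted p = 0.161) for the ligature and -0.68 ± 0.39 (0.247) for both procedures, and -0.56 and -0.53 in 13 libraries. With ligature 2 alone left out, whose 6.95 CPM is by far the lowest value, both procedures gave -0.70 with an adjusted p of 0.0316.

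The ratio of Tfrc CPM to Slc40a1 CPM, receptor to exporter, separated the libraries more cleanly than either gene. It is not scaled by length and is read only between libraries. In control it was 0.587, 0.751, 1.18 and 1.65, and in trauma 0.868, 0.932, 1.03 and 0.638. In ligature it was 9.06, 7.87, 7.06 and 6.01, and in ligature plus trauma 3.74, 2.36, 4.2 and 6.13. The shifted libraries fell among or near the others of their group, and no value with a ligature overlapped one without. The ratio was picked after the values were seen and carries no test.

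Cp (ENSMUSG00000003617.17) encodes ceruloplasmin, the copper oxidase that prepares exported iron for loading onto transferrin. Control libraries had 39, 68.6, 88.6 and 90.4 CPM and trauma libraries 59, 65.3, 38.4 and 87.1. Ligature libraries had 263, 78, 195 and 209 CPM, and ligature plus trauma libraries 167, 76, 117 and 113. As with Tfrc, the lowest value of each ligature group was in a shifted library, and these 2 alone fell into the control range. The ligature gave a log2 fold change of 1.38 ± 0.37 (edgeR adjusted p = 0.026), and 1.62 (0.00723) in 13 libraries. The call was lost without control 1 (1.17, adjusted p = 0.0752), control 2 (1.36, 0.0659), ligature 1 (1.17, 0.0809) or ligature 4 (0.053), and in a fit of the compared groups only (1.36, 0.064). Both procedures gave 0.72 ± 0.36 (adjusted p = 0.189), and 0.96 in 13 libraries. Reads of Cp may include reads of Hps3, which overlaps it on the opposite strand, because the strand setting of the counting is not given in the sources used here.

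Fth1 (ENSMUSG00000024661.8) encodes the ferritin heavy chain, which oxidises iron for storage. Its values in control were 3122, 3200, 3017 and 3199 CPM, a spread of 86.5 (SD) around 3134. Ligature libraries had 6993, 15078, 6077 and 6835 CPM, ligature plus trauma libraries 9126, 11524, 11780 and 5240, and trauma libraries 3440, 5465, 5926 and 8005. Every library of the 3 treated groups was above every control library. The log2 fold change was 1.48 ± 0.34 for the ligature (edgeR adjusted p = 0.012) and 1.59 ± 0.34 for both procedures (0.00876). In 13 libraries these were 1.06 (adjusted p = 0.0232) and 1.19 (0.0397), still past the threshold. Trauma against control gave 0.87 ± 0.33, with all 16 pairs of libraries in 1 direction but an edgeR adjusted p of 0.667.

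Ftl1 (ENSMUSG00000050708.17) encodes the ferritin light chain, the other subunit of the storage shell. It had 1330, 1741, 2139 and 1671 CPM in control and 2982, 5686, 2190 and 2663 in ligature. Ligature plus trauma libraries had 2899, 4366, 5073 and 2417 CPM, and trauma libraries 1998, 1826, 2232 and 2848. The ligature and control ranges came close, at 2190 and 2139, without overlapping. The ligature gave 0.97 ± 0.31 (edgeR adjusted p = 0.0563), which passed only under some alternatives, DESeq2 among them (adjusted p = 0.0171). Without ligature 3 it was 1.13 (edgeR adjusted p = 0.0388), and in 13 libraries 0.58 (0.105). Both procedures gave 1.10 ± 0.31 (edgeR adjusted p = 0.0332). That call was lost in 13 libraries (0.62, adjusted p = 0.168), with no expression filter (1.08, adjusted p = 0.0506) and without control 1, 2 or 4, ligature plus trauma 2 or ligature plus trauma 3, where adjusted p was 0.0751 to 0.126 and the log2 value 0.89 to 1.11. Ferritin light chain pseudogenes held 2.39 to 2.95% as many CPM as Ftl1, so reads may be shared with near-identical copies. Fth1 CPM over Ftl1 CPM was 1.41 to 2.35 in control and 2.35 to 2.77 in ligature. Trauma libraries had 1.72 to 2.99, and those with both procedures 2.17 to 3.15.

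Hmox1 (ENSMUSG00000005413.9) encodes haem oxygenase 1, which frees iron from haem and is induced by haem and oxidative stress. It had 26.2, 69.6, 35.4 and 40 CPM in control and 124, 156, 96.5 and 111 in ligature. Ligature plus trauma libraries had 133, 152, 139 and 76.9 CPM, and trauma libraries 36.2, 121, 83.7 and 83.8. All 8 libraries with a ligature were above the 4 control libraries, and 3 of 4 trauma libraries were too. The log2 fold change was 1.51 ± 0.35 for the ligature (edgeR adjusted p = 0.0132) and 1.55 ± 0.35 for both procedures (0.012). In 13 libraries the first stayed past the threshold (1.35, adjusted p = 0.0455) and the second did not (1.29, 0.116). Trauma gave 0.92 ± 0.35 (adjusted p = 0.664).

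Other genes of iron and haem metabolism were read from 7 lists with 71 genes, of which 66 were tested. In ligature against control 9 passed higher and 8 lower, and with both procedures 6 higher and 8 lower. Over all genes 5.88% were higher and 4.78% lower in the first, and 6.83% and 5.62% in the second. Trauma alone and ligature plus trauma against ligature gave 0 in each direction by edgeR, DESeq2 and limma-voom. At an unadjusted p under 0.05 in edgeR they had 5 and 1 genes, beside 1450 and 734 of all genes tested. Against trauma, ligature plus trauma gave 2 higher and 5 lower, where 2.21% of all genes were higher and 3.27% lower. In 13 libraries 10 were higher and 7 lower with the ligature, and 3 and 3 with both procedures, where the shares over all genes were 4.49% and 3.49%, and 2.13% and 1.13%. The lists were drawn up with earlier results of these data known.

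Of 14 tested genes of iron uptake and transport, 3 were higher and 2 lower in ligature against control. Cybrd1, a ferric reductase, fell from 106 to 172 CPM in control to 38.4 to 78.8 in ligature (log2 -1.41 ± 0.26, edgeR adjusted p = 0.00296) and by a like amount with both procedures (-1.47 ± 0.26, 0.00265). Steap1, of the metalloreductase family, rose from 1.67 to 4.11 CPM to 8.03 to 20.1 (2.45 ± 0.50, adjusted p = 0.00633). Slc11a2, a relative of Slc11a1 that imports divalent metals, passed at 0.89 ± 0.25 (adjusted p = 0.0325), and Steap4 at 1.05 ± 0.32 (0.0481). The Slc11a2 call was lost without control 1, 3 or 4 or ligature 1 or 4 (adjusted p up to 0.0946), and the Steap4 call without any 1 of 13 libraries (up to 0.119). Steap3, the ferric reductase of endosomes, fell with both procedures by 1.49 ± 0.33 on the log2 scale (edgeR adjusted p = 0.0108).

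Storage and iron regulatory genes gave 0 of 7 past the threshold in each comparison with control by edgeR, and the haem synthesis list 0 of 9. At an unadjusted p under 0.05 there were 1 and 2 of them with the ligature, 0 and 0 with trauma, and 1 and 3 with both procedures. With the ligature DESeq2 passed 0 and 1, and limma-voom 0 and 1, and with both procedures 1 and 1 by DESeq2 and 0 and 1 by limma-voom. Ncoa4, which delivers ferritin for breakdown, had a log2 difference of 0.10 ± 0.16 (edgeR adjusted p = 0.72) for the ligature. The medians of both lists in ligature against control were 0.10 and -0.11. Of 9 tested genes of the axis of hepcidin, the hormone that lowers ferroportin, 0 were higher and 2 lower. These were Neo1, a co-receptor (-1.25 ± 0.33, edgeR adjusted p = 0.0254), and Hfe (-0.73 ± 0.20, 0.0321), and neither call was stable. Neo1 was lost without control 2, 3 or 4 or ligature 1, 2 or 4 (adjusted p up to 0.0581), and Hfe without control 2, 3 or 4 or ligature 1 or 3 (up to 0.0968).

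Haem breakdown, export and scavenging held the opposed pair Cd163 and Hp. Of 10 genes, 4 were higher and 1 lower with the ligature. Cd163, the macrophage receptor for haemoglobin bound to haptoglobin, fell from 21.1 to 28.4 CPM in control to 1.6 to 5.51 in ligature and 1.85 to 4.4 with both procedures. Its log2 fold changes were -2.82 ± 0.43 (edgeR adjusted p = 0.000971) and -3.05 ± 0.43 (0.000924). Cd163 is also on the macrophage list, whose sums overlapped, at 490 to 791 CPM in control and 785 to 1362 in ligature. Hp, the haptoglobin that Cd163 recognises, went the other way, from 1.45 to 10.8 CPM in control to 56.7 to 81.6 in ligature (3.46 ± 0.66, edgeR adjusted p = 0.00401). With both procedures Hp gave 3.60 ± 0.66 (0.00375), and 2.01 (0.0809) in 13 libraries. Lrp1, a receptor that takes up haem bound to hemopexin, passed at 0.92 ± 0.21 (adjusted p = 0.0107), and Hmox2, the constitutive haem oxygenase, at 1.10 ± 0.29 (0.0248). The Hmox2 call was lost without control 1, control 2 or ligature 2, with an adjusted p up to 0.0736.

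Targets of NRF2, a transcription factor that also drives Hmox1 and the ferritin genes, gave 0 higher and 2 lower of 13 in each comparison of a ligature group with control. Nqo1, a quinone reductase, fell 4-fold, from 33.9 to 64.9 CPM to 9.47 to 15.7 (SE 0.41 on the log2 scale, edgeR adjusted p = 0.00631). Gclc, the catalytic subunit for glutathione synthesis, was at -1.98 ± 0.54 (0.0283), a call lost in 13 libraries (-1.73, 0.079) and without control 1 or 2 or ligature 1, 2 or 3 (adjusted p up to 0.115). The list's median was -0.36 in ligature against control. Oral epithelium had 6 of 12 markers lower with the ligature and 9 of 12 with both procedures. Its marker sums overlapped, at 1693 to 14875 CPM in control and 1821 to 3075 in ligature. Control 4 had the lowest sum, Nqo1 (33.9 CPM) and Gclc (43.3 CPM) of the control libraries. In the ligature libraries Nqo1 had 9.47 to 15.7 CPM. Gclc had 42, 12.8, 36.2 and 40.9 CPM there, the highest close to control 4. The part of the epithelium was not tested.

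In the short list of siderophore and nutritional immunity genes, 2 of 4 tested were higher and 1 lower with a ligature, alone or with trauma. Acod1, the enzyme that makes itaconate in activated macrophages, rose from 1.52 to 10.9 CPM in control to 39.2 to 101 in ligature (3.38 ± 0.65, edgeR adjusted p = 0.00425). Mmp9, a protease that is also on the osteoclast list, rose from 308 to 372 CPM to 773 to 1818 (2.04 ± 0.33, 0.00145). Ltf, the iron-binding lactoferrin of neutrophil granules and glands, fell from 79.3 to 435 CPM to 7.51 to 37.5 (-3.77 ± 0.87, 0.0126). For Lcn2, which did not pass, the ligature value was the higher in 15 of 16 pairs of libraries. Ltf is 1 of the 8 granulocyte precursor markers, whose sum was 86.4 to 454 CPM in control and 20.6 to 51.4 in ligature. The 1 of 8 that passed, lower, was Ltf itself. Ltf held 303 of 308, 435 of 454, 79.3 of 86.4 and 109 of 385 CPM of the sum in controls 1 to 4. In trauma 2 it held 938 of 942 CPM. The sum is therefore no readout separate from Ltf. The sum was 171 to 942 CPM in trauma and 35.6 to 97.1 with both procedures, and Elane, Mpo, Prtn3, Ctsg, Camp and Ngp were each at 0 in some libraries. The part of granulocyte precursors in the Ltf values was not tested. In 13 libraries the ligature values were -1.42 for Cybrd1, -2.60 for Cd163, -1.06 for Neo1, -0.81 for Hfe, 0.96 for Lrp1, 0.62 for Hmox2 and 2.22 for Mmp9, and each still passed (edgeR). With both procedures, the 13-library values of Acod1 (2.63, edgeR adjusted p = 0.0559), Ltf (-3.30, 0.0799), Nqo1 (-1.64, 0.134), Gclc (-2.01, 0.126) and Steap1 (1.59, 0.148) no longer passed.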

How the data were processed

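RNA sequencing of 16 libraries of periodontal ligament was used, 4 in each of 4 groups taken from the labels. Per the labels' protocols, poly(A) RNA was enriched. The deposited values are whole-number counts per gene, not normalised by the authors. Per the submitters' processing notes, HISAT2 2.2.1, StringTie 2.1.7, Trimmomatic 0.39, FastQC 0.11.9 and DESeq2 1.32.0 were used with the build GRCm39. Which tool counted, with what annotation and strand setting, is not given in the sources. Symbols, transcript lengths and sequences came from GENCODE M21 (GRCm38), so no genome coordinates are given. Genes with a symbol numbered 52083, and the rest held 0.205% of the counts.

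Counts as deposited were tested with edgeR 4.0.16 (quasi-likelihood, under R 4.3.3), with trimmed-mean scaling, the filter at a minimum count of 10, 1 fit of 4 groups (12 residual degrees of freedom) and Benjamini-Hochberg adjustment over 20953 genes. CPM are relative to the scaled library total. Likeness is Pearson's r of log2 CPM with a prior count of 2. Alternatives were DESeq2 1.42.0, its size factors, limma-voom (limma 3.58.1) with sample weights, a filter of 50 counts in 4 libraries, no filter, a replicate block, the compared groups only, 13 libraries, each library left out, and, chosen after seeing the data, the length trend removed by a spline with 5 degrees of freedom. Lengths were found for 99.66% of tested genes. The scripts were tested on simulated data. No pair of libraries had a correlation of log2 CPM above 0.948.

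The members and lists were chosen with earlier results of these data known. Genes named are the 10 members, up to 4 of each list by lowest p in the 2 comparisons of a ligature group with control, list members that passed elsewhere, and the 5 genes most like Bdh2 and Lcn2. Of the listed genes, 1 is not reported here by name.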

Additional observations from a re-analysis of the deposited data

Results flagged for a closer look

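For each member and group, the library farthest from the others was compared with the group's range. Of 40 such groups of 4 libraries, 3 had a library far outside the rest, and chance flags about 1 in 20. Bdh2 in ligature 2 stood at 78.7 CPM, while the 3 other ligature libraries had 26.5 to 29. Fth1 in ligature 2 stood at 15078 CPM, while the others had 6077 to 6993. Both come from a library shifted to short transcripts. Slc22a17 in trauma 1 stood at 25.2 CPM, while the other trauma libraries had 6.44 to 9.33. Trauma 1 was also the trauma library with the lowest neutrophil marker sum, 625 CPM.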

How the results depend on the processing

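Without Bdh2, the members past the threshold numbered 1 instead of 0 for trauma against control by DESeq2. For ligature plus trauma against control they numbered 2 instead of 4 with 13 libraries. The next counts are over all 10 members, Bdh2 included, which was selected on its level with a ligature. Bdh2 is in each of these counts that is above 0, so they hold a call fixed by selection. For ligature plus trauma against control, 3 instead of 5 passed with no filter. With 1 library left out at a time the counts ranged from 4 to 7 in ligature against control and 3 to 7 in ligature plus trauma against control. They ranged from 1 to 2 in ligature plus trauma against trauma and stayed at 0 in the other 3 comparisons. Over all genes, DESeq2 passed 3698 instead of 2234 for ligature against control, 114 instead of 1 for trauma, 4240 instead of 2609 for both procedures against control, 31 instead of 0 against ligature, 2098 instead of 1149 against trauma and 51 instead of 0 in the interaction. The compared groups alone gave 1369 for the ligature. In 13 libraries the counts were 743 for both procedures against control, 403 against trauma and 2 in the interaction, where the length correction gave 1. With the length trend removed, log2 values for both procedures against control were smaller in short members. They were 0.73 instead of 1.45 for Lcn2, 0.58 instead of 1.10 for Ftl1, 1.33 instead of 1.59 for Fth1 and 1.34 instead of 1.55 for Hmox1. Longer members had larger values, 1.65 instead of 1.37 for Tfrc and 0.99 instead of 0.72 for Cp. The other comparisons with control moved too. For Ftl1 the ligature value became 0.56 instead of 0.97, and the trauma value 0.08 instead of 0.37. For Tfrc the ligature value became 2.13 instead of 1.97. Apart from left-out libraries, 530 single-gene values of members kept direction and side of the threshold in 502 cases, and 562 of other pathway genes in 506.

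These directions turned. Lcn2 for both procedures became -0.10 against control and -1.10 against ligature in 13 libraries, and against ligature -0.08 by voom and -0.13 with the length trend removed. Against ligature, Slc22a17 became -0.18 by voom and -0.27 in 13 libraries, Slc40a1 -0.04 by voom, and Hmox1 -0.06 in 13 libraries. The interaction became 0.02 with no filter and 0.12 in 13 libraries for Tfrc, and 0.08 by voom for Ftl1. Pcbp2 for both procedures became -0.06 in 13 libraries, and Fech 0.01 with the length trend removed. Leaving out 1 library turned Bdh2 in trauma (range -0.30 to 0.13), Slc11a1 in trauma (-0.09 to 0.49) and Il22ra1 in ligature (-0.57 to 1.48). It turned these against ligature: Lcn2 (-0.52 to 0.47), Slc22a17 (-0.20 to 0.47), Slc40a1 (-0.13 to 0.45), Hmox1 (-0.06 to 0.21), Fth1 (-0.03 to 0.51) and Ftl1 (-0.07 to 0.51). It also turned Slc22a17 against trauma (-0.70 to 0.23), and the interaction for Tfrc (-0.47 to 0.23) and Ftl1 (-0.42 to 0.16). The cause was not tested.

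Same-numbered libraries did not deviate together (24 pairs, correlations -0.157 to 0.215). With the replicate number as a block, 6, 0, 5, 0, 2 and 0 of the members, Bdh2 included, passed in the 6 comparisons, as without it. Bdh2, selected on its level, was among them wherever any passed. The block turned 2 directions: Bdh2 in trauma became 0.07 and Lcn2 against ligature -0.08.

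Depth was ample for the members, so the spread between 4 libraries, not counting error, limits precision.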
